A study of Mus musculus with 4 samples.

Results

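The comparison set the spinal cord of transgenic mice against the brainstem and cerebellum of mice of the same genotype, and asked which genes tell the tissues apart and in which tissue the glial and immune reaction was stronger. It used 2 of the 4 arrays of the study, the transgenic spinal cord array and the transgenic brainstem/cerebellum array. A gene counted as measured when both arrays put its probe well above background, which held for 16917 of 26842 named genes. The wild-type spinal cord and brainstem/cerebellum arrays are given beside them. All mice were 24 weeks old, on a mixed background of C57BL/6, 129 and C3H, and the submitters call the transgenic animals MSA Tg mice. MSA is multiple system atrophy, a degenerative brain disease in which oligodendrocytes fill with protein deposits. The sample titles start with PLP, but the promoter, the transgene, and the number of animals behind each sample are not given in the sources used here. Each group had 1 array, so no difference has a replicate check, and no p-value is given.

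Hox genes encode transcription factors whose order along a chromosome follows the order of their domains along the body axis. Genes of low paralog number are used from the hindbrain backwards, and genes of high number mark the trunk and tail levels of the cord. The cerebellum carries its own cell types, chiefly granule and Purkinje neurons, and the brainstem holds most monoamine neurons. Microglia, the resident phagocytes of the nervous system, leave their resting program around degenerating myelin and neurons and take up a state marked by phagocytic, lysosomal and antigen presentation genes. Astrocytes react with intermediate filaments, protease inhibitors and acute-phase proteins.

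Between 59.2% and 64.0% of the spots of each array were well above background, and none was saturated. Values are log2 of the processed signal minus the array's own 75th percentile, so a level of 0 lies at that percentile. A difference is spinal cord minus brainstem/cerebellum on this log2 scale. Repeated spots within an array gave an SD of a difference of 0.09 for bright probes and 0.59 for the dimmest, and this technical error leaves out animals and hybridisations. Both transgenic arrays lay on 1 slide. The wild-type spinal cord array lay on another slide than the other 3, so tissue and slide cannot be told apart in the wild-type comparison. Scaling on spike-in controls instead moves every transgenic difference by -0.33 and the median of all genes from -0.02 to -0.35, so differences between 0 and 0.33 turn negative under it.

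The transgenic tissues differed by 2-fold or more at many genes, with more of them higher in spinal cord. Of the 16917 measured genes, 1700 (10%) were higher in spinal cord by 2-fold or more and 1055 (6.24%) were lower by as much. With spike-in scaling the balance turned, with 1028 higher and 2076 lower, so that 33.1% of the genes past 2-fold were higher in place of 61.7%. A further 311 genes above background in spinal cord alone, and 258 above background in brainstem/cerebellum alone, passed 2-fold as a bound. Across all measured genes, 66.5% lay within 1.5-fold. In the wild-type comparison 6.52% of measured genes were higher by 2-fold or more and 4.36% lower.

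**Figure D1:**
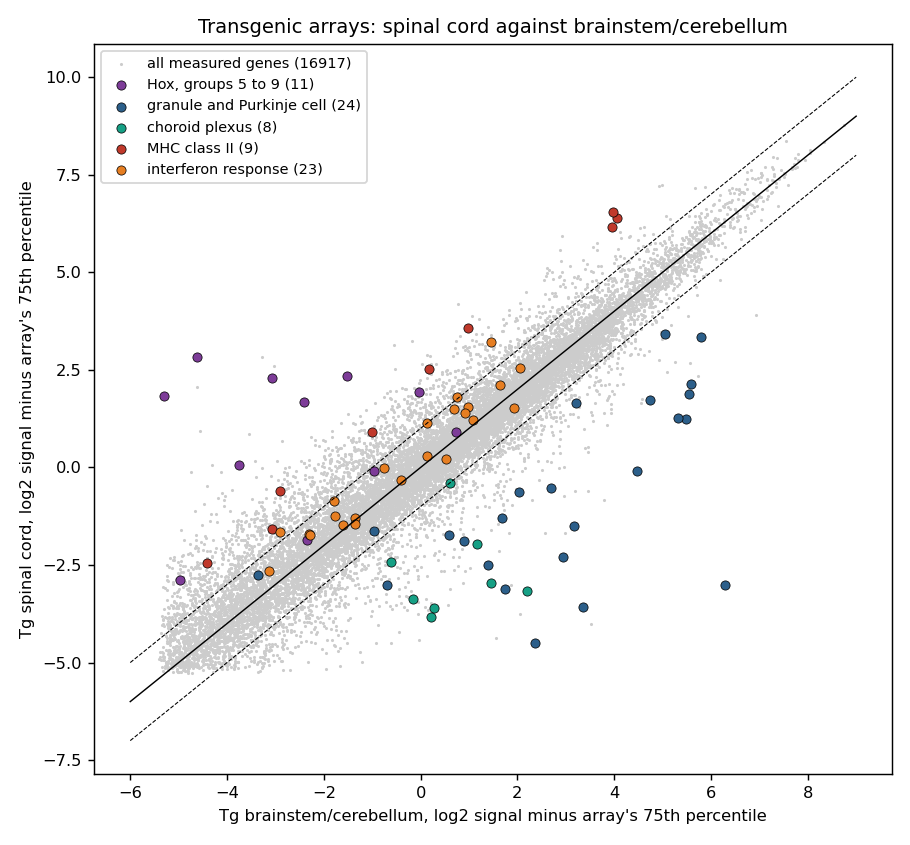
Level of each measured gene on the transgenic brainstem/cerebellum array (horizontal) and the transgenic spinal cord array (vertical), both as log2 signal minus the array's 75th percentile; the solid line marks equal levels and the dashed lines 2-fold. Hox genes of paralog groups 5 to 9 and MHC class II genes lie above the diagonal, cerebellar (all but Skor2) and choroid plexus genes below it, and most of the 23 interferon response genes between the dashed lines.

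The largest differences in favour of spinal cord included Hox genes and myeloid genes. Hoxd8 led with a difference of 7.44, or 174-fold, followed by Hoxb9 at 7.12. Their levels in transgenic brainstem/cerebellum, -4.61 and -5.30, were near the lowest level above background on that array, -5.40, so the exact sizes and their order are uncertain. S100a9 and S100a8, the paired calcium-binding proteins of neutrophils, stood at 6.10 and 5.50. The neuropeptide genes Tac2 at 3.68 and Uts2 at 3.40, the apolipoprotein gene Apoc4 at 3.54, the macrophage membrane gene Ms4a7 at 3.41, the kallikrein gene Klk8 at 3.05 and the unnamed transcript 4930519N06Rik at 4.40 were also far above 2-fold. All of these were above the median level of measured genes on at least 1 array, and dimmer genes with differences of like size, such as Prx and Camp, are given with their lists. Apoc4 was not above background on either wild-type array. Klk8 had levels of 2.51 and -0.54 on the transgenic spinal cord and brainstem/cerebellum arrays against -1.74 and -2.53 on the wild-type ones.

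The lower end included many genes of the cerebellum. Pcp2, a G protein regulator of Purkinje cells (probe on chromosome 8, 3623377 to 3623436; probe positions are in build mm9), had the largest difference among genes above background on both arrays, -9.30, or 632-fold lower in spinal cord. Crtam, an adhesion molecule gene, followed at -7.53, the granule cell transcription factor gene Neurod1 at -6.94 and the Purkinje phosphatase inhibitor gene Ppp1r17 at -6.87. Mybpc3 at -5.92, Clic6 at -5.37, Gabrd at -5.24, Gdf10 at -5.20, Il20rb at -4.87, Itpka at -4.66 and the midbrain and hindbrain factor gene En2 at -4.64 belonged to the same end. Aqp6, a water channel gene, stood at -5.81 but at -0.72 by its other probe, so its value depends on the probe.

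Hox genes separated the tissues by paralog number. Those of groups 1 to 4, other than Hoxb1, were above background in both tissues and mostly differed by less than 2-fold, while from group 6 on those above background were much higher in spinal cord or detected there alone. Of 39 Hox genes with a probe, 33 were above background on the transgenic spinal cord array and 22 on the transgenic brainstem/cerebellum array. In all, 18 of the 39 were higher in spinal cord by 2-fold or more, 9 as measured differences and 9 as bounds, and 0 were 2-fold lower. Hox expression also answers a question of labelling: the submitters' source field calls all 4 samples brain, while the tissue field names spinal cord for a pair of them, and the arrays labelled spinal cord carry the posterior Hox genes.

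In paralog groups 1 to 4, only Hoxd4 passed 2-fold among 11 measured genes, with a difference of 1.52, and the group median was 0.47. Hoxa4 and Hoxc4 had differences of -0.03 and -0.06. Hoxb3, at 0.62, ran from -0.54 to -0.04 at its other probes, and Hoxb2, at 0.73, stood at 1.36 at its other probe. Group 5 was similar, with Hoxa5 at 0.88, Hoxc5 at 0.48 and Hoxb5 at 0.19.

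From group 6 to group 9, all 12 genes passed 2-fold, 8 as measured differences and 4 as bounds. Hoxa7 (chromosome 6, 52165626 to 52165685) had levels of 2.30 on the transgenic spinal cord array and -3.08 on the transgenic brainstem/cerebellum array, and of 3.79 and -3.67 on the wild-type arrays in the same order. Both spinal cord arrays were thus high and both brainstem/cerebellum arrays low, and the transgenic difference was 5.38, or 41.7-fold. Hoxc6 stood at 4.09, Hoxb7 at 3.87, Hoxb8 at 3.82, Hoxa9 at 2.09 and Hoxb6 at 1.97. Hoxc9 and Hoxc8 were above background in spinal cord alone and were at least 94.4-fold and 92.1-fold higher there. Mira, an RNA of the Hoxa cluster whose probe lies beside that of Hoxa7 (chromosome 6, 52164490 to 52164549), had a difference of 5.64.

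Of the 12 genes of paralog groups 10 to 13, 0 were above background on either brainstem/cerebellum array. On the transgenic spinal cord array 7 of them were, and 5 passed 2-fold as a bound: Hoxa10 at least 67.2-fold, Hoxc10 at least 27.8-fold, and Hoxa11, Hoxc11 and Hoxd10 at least 3.18, 2.85 and 2.48 on the log2 scale. Hoxc12 and Hoxc13 were near the limit, with bounds of 0.69 and 0.83. Hoxb13, the most posterior gene of its cluster, was above background in wild-type spinal cord alone, at -2.87.

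**Figure D2:**
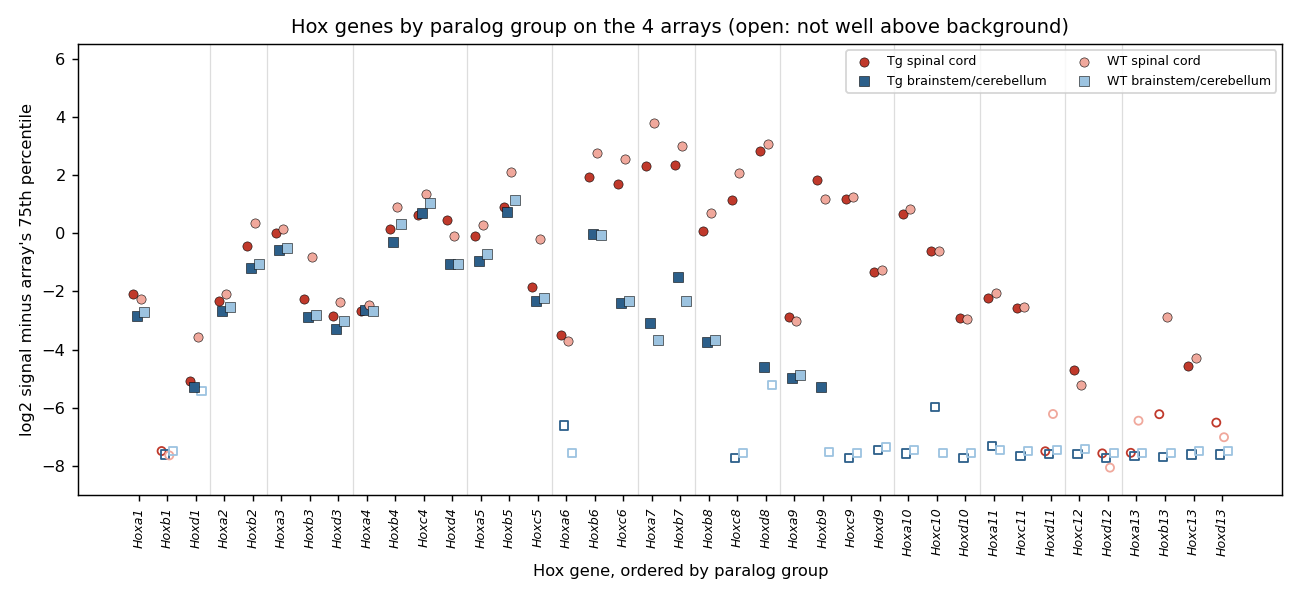
Level of the 39 Hox genes on the 4 arrays (log2 signal minus the array's 75th percentile), ordered by paralog group, with open symbols for probes not well above background. Circles (spinal cord) and squares (brainstem/cerebellum) mostly lie within 2-fold up to group 5 and part from group 6 on, in both genotypes.

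Genes of cerebellar neurons were lower in spinal cord. For these neurons, as for every cell type named here, fewer cells and less RNA per cell cannot be told apart in tissue RNA. All 10 measured granule cell genes were at least 2-fold lower, with a median of -3.68, and a further 4 were above background in brainstem/cerebellum alone. Gabra6, the granule cell GABA receptor subunit, had levels of 4.03 in transgenic and 3.95 in wild-type brainstem/cerebellum and was not above background on either spinal cord array, which makes it at least 636-fold lower. Fat2, a cadherin of granule cells, was at least 205-fold lower, and Cbln3 and Slc17a7 at least 4.95 and 5.65 lower on the log2 scale. The synaptic organiser Cbln1 stood at -4.06, the NMDA receptor subunit Grin2c at -4.66 and the zinc finger factor Zic1 at -3.45.

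Of 14 Purkinje cell genes, 12 were at least 2-fold lower and 0 higher, with a median of -2.99. The calcium buffer gene Calb1 had levels of 1.24 and 5.47 on the transgenic spinal cord and brainstem/cerebellum arrays and 2.09 and 5.28 on the wild-type ones. Its transgenic difference was -4.23. Car8 stood at -4.86 (-5.87 at its other probe), Rgs8 at -4.57 (-2.64 at its other probe) and the inositol trisphosphate receptor gene Itpr1 at -3.66. Grid2ip, at -0.66, and Skor2, at 0.61, were the members within 2-fold. Among other cerebellar genes 4 of 6 were lower, with Gdf10 of Bergmann glia at -5.20 and the interneuron factor Tfap2b at -3.84.

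Several genes of monoamine neurons were lower in spinal cord. Of 3 measured catecholamine neuron genes 2 were at least 2-fold lower and 0 higher, and 3 more were lower as bounds, while Phox2a stood at 0.52. Of 6 measured serotonin neuron genes 2 were lower and 0 higher, and 2 more were lower as bounds; the median was -0.74. Dbh, which makes noradrenaline from dopamine, was above background in transgenic brainstem/cerebellum at 1.58 and not in transgenic spinal cord, and so was at least 117-fold lower. The noradrenaline transporter gene Slc6a2 was at least 3.93 lower on the log2 scale, and Th, the first enzyme of catecholamine synthesis, stood at -2.20. For serotonin neurons, the transporter gene Slc6a4 and the synthetic enzyme gene Tph2 were at least 23.2-fold and 18.0-fold lower, while the vesicle transporter gene Slc18a2 stood at -3.69 and Fev at -0.83. Slc18a2 belongs to the serotonin and the catecholamine list and is counted as lower in each. The members Ddc, Htr1a and Gata2 stood at -0.02, -0.53 and -0.65. Otx2, a midbrain and choroid plexus factor, was at least 96.5-fold lower, and Il22, a cytokine gene by its array annotation, at least 145-fold lower with levels of 1.90 and 2.08 on the brainstem/cerebellum arrays.

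Spinal neuron genes were partly higher in spinal cord, and the counts depend on the scaling. Of 13 measured dorsal horn genes, which serve the first relay of touch, itch and pain, 5 were at least 2-fold higher and 0 lower, with a median of 0.92. Only 3 passed with spike-in scaling, where the median was 0.59, and 3 with normexp background correction and quantile normalization. Tac2 had levels of 3.13 and -0.55 on the transgenic spinal cord and brainstem/cerebellum arrays. The neuromedin receptor gene Nmur2 stood at 2.56, the opioid precursor gene Pdyn at 1.35 and the substance P receptor gene Tacr1 at 1.24, whereas the enkephalin gene Penk stood at -0.47 and the galanin gene Gal at -0.15.

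Cholinergic and motor neuron genes included 7 of 12 that were at least 2-fold higher and 2 that were lower, with a median of 1.06. With spike-in scaling 2 were higher and 3 lower, and with normexp 4 were higher and 1 lower and the median was 0.42. Chat, which makes acetylcholine, stood at 1.54 (-0.38 at its other probe). Slc18a3, which loads acetylcholine into vesicles, stood at 1.13, Isl2 at 1.86 and Chodl, a marker of fast motor neurons, at 1.28. Esrrb, a gene of slow or gamma motor neurons, stood at -1.62. Uts2b stood at -1.22 in the transgenic mice and at 1.48 in wild type.

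Inhibitory synapse genes leaned to brainstem/cerebellum, with 4 of 11 at least 2-fold lower in spinal cord, a median of -0.57, and Gad1 at -1.95 (0.03 at its other probe) and Gad2 at -1.26. The glycine receptor gene Glra1 stood at 0.55. Of 14 genes shared by all neurons, 3 were at least 2-fold lower and 0 higher: Syt1 at -1.49, Rbfox3 at -1.13 and Elavl4 at -1.05. The median of the 14 was -0.03, but -0.36 with spike-in scaling, -0.28 with quantile normalization and -0.27 with normexp. Snap25, a vesicle fusion gene, and the heavy neurofilament gene Nefh each had a difference of 0.00, though the other probes of Snap25 ran from -2.14 to -1.22. In wild type, Nefh stood at 0.99 and the light and medium neurofilament genes Nefl and Nefm at 0.95 and 1.17, against 0.29 and 0.15 in the transgenic mice.

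Genes of choroid plexus and of peripheral nerve also differed between the samples. Which tissue came with each sample was not tested. All 8 measured choroid plexus genes were at least 2-fold lower in spinal cord, with a median of -3.54, and 3 more were above background in brainstem/cerebellum alone. Folr1 stood at -4.44, the anti-ageing receptor gene Kl at -3.86 and the potassium channel gene Kcnj13 at -3.12. In the other direction, all 8 measured genes of peripheral myelin and Schwann cells were at least 2-fold higher in spinal cord, with a median of 2.40. Prx, a scaffold protein of peripheral myelin, had levels of -0.12 and -4.74 on the transgenic spinal cord and brainstem/cerebellum arrays and 1.63 and -5.0 on the wild-type ones. Its transgenic difference was 4.62 and that of Dhh, a Schwann cell signal, 2.97.

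Most detected genes of muscle and of neutrophils were higher in spinal cord as well. Among skeletal muscle genes 4 of 7 measured were at least 2-fold higher and 4 more passed as bounds, with the fast troponin genes Tnnc2 at 3.23, Tnnt3 at 3.08 and Tnni2 at 2.76. The summed linear signal of the 12 muscle genes, in units of each array's 75th percentile, was 3.93 and 0.746 in transgenic spinal cord and brainstem/cerebellum, and 7.0 and 0.595 in wild type. Of neutrophil genes 3 of 4 measured were higher and 4 passed as bounds, and their sums were 11.1 and 0.499 in the transgenic and 7.82 and 0.647 in the wild-type tissues. The sums of 10 neutrophil genes were thus higher in spinal cord in both genotypes. A linear sum mostly reflects its brightest members, in spinal cord S100a9 and S100a8, so it is not a result about all 10. S100a9 had levels of 2.83 in transgenic and 2.25 in wild-type spinal cord against -3.27 and -2.31 in brainstem/cerebellum, and the granule genes Camp, Mpo and Ngp stood at 3.13, at least 2.79 and at least 2.72. The neutrophil receptor gene Cxcr2 was not above background on any array, and the surface marker gene Ly6g was above background in transgenic brainstem/cerebellum and not in transgenic spinal cord. Of 4 haemoglobin and red cell genes, 3 were at least 2-fold higher, with a median of 1.39.

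Of 13 meningeal and fibroblast genes, 6 were at least 2-fold higher and 0 lower, with a median of 0.97 against 1.36 in wild type. Col3a1 stood at 2.88, Col1a1 at 2.17 and the leptomeningeal gene Lum at 1.72, while Foxd1 stood at -0.99. Sensory ganglion genes gave no direction: of 4 measured, 1 was higher and 1 lower, the defining sodium channel gene Scn10a and the heat receptor gene Trpv1 were not above background on any array, and the median of 0.03 turned to -0.31 with spike-in scaling. The part of attached roots, meninges, muscle and blood in the immune differences that follow was not tested.

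Myelin genes were moderately higher in spinal cord, in the transgenic mice as in wild type. Of 27 myelin and mature oligodendrocyte genes, 11 were at least 2-fold higher and 0 lower, with a median of 0.82, against 13 of 27 and 0.98 in wild type. Mbp, myelin basic protein, had levels of 5.75 and 4.83 on the transgenic spinal cord and brainstem/cerebellum arrays and 5.45 and 4.56 on the wild-type ones, and its other probes gave transgenic differences from -0.08 to 1.16. Mag, an adhesion molecule of myelin, stood at 1.30 in transgenic and 1.16 in wild type, and the tight junction gene Cldn11 at 1.58 and 1.03. Klk6, a myelin-associated protease, had the largest difference of the list, 2.69, with levels of 5.57 and 2.88 in the transgenic against 2.49 and 0.24 in the wild-type tissues. Enpp2, at -0.76, and Ermn, at -0.05, were the only members below 0. With spike-in scaling 6 were at least 2-fold higher and 1 lower.

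Precursor genes of the same lineage were mostly higher in transgenic spinal cord and mostly within 2-fold between the wild-type tissues. Of 12 oligodendrocyte precursor genes, 8 were at least 2-fold higher in the transgenic and 1 of 12 in the wild-type comparison, with medians of 1.12 and 0.23. With spike-in scaling 5 were higher and 1 lower in the transgenic comparison. Gpr17, a receptor of precursors that have started to differentiate, had a level of 3.89 in transgenic spinal cord and of 2.38, 2.44 and 2.26 on the transgenic brainstem/cerebellum, wild-type spinal cord and wild-type brainstem/cerebellum arrays, so that 1 array stood above the other 3. The proteoglycan gene Cspg4 did the same, with 0.83 against -0.52, -1.53 and -1.31. Their transgenic differences were 1.51 and 1.36, with Tnr at 1.35, Vcan at 1.15 and the growth factor receptor gene Pdgfra at 1.08 (-0.68 at its other probe). Enpp6 stood at 1.79 and also at 1.56 in wild type. Ptprz1, a receptor phosphatase, stood at -0.75.

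The cholesterol pathway, which supplies myelin, differed little between the transgenic tissues, with 0 of 19 genes higher and 1 lower and a median of -0.06. Stard4, a sterol carrier, was the lower one at -1.24. Sqle, an enzyme of the pathway, stood at 0.17.

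Genes of resting astrocytes were close to equal. Of 14 such genes 0 were at least 2-fold higher and 1 lower, with a median of -0.11 that turned to 0.05 when the probes of a gene were averaged. With spike-in scaling 3 were lower and the median was -0.45. Slc1a3, the glutamate transporter of Bergmann glia and other astrocytes, was the lower one at -2.11 (-0.90 at its other probe), with -2.14 in wild type. Aldh1l1 stood at 0.28, Slc1a2 at 0.22 and the water channel gene Aqp4 at 0.84.

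Reactive astrocyte genes had 23 of 26 measured members at least 2-fold higher and 1 lower, with a median of 1.75, against 11 higher and 1 lower of 23 and 0.99 in wild type. Gfap, the filament protein of astrocytes, had levels of 5.91 in transgenic spinal cord, 4.31 in transgenic brainstem/cerebellum, 4.83 in wild-type spinal cord and 2.88 in wild-type brainstem/cerebellum. Its difference was 1.60 in the transgenic and 1.95 in the wild-type mice, so the spinal cord was higher by a similar amount in both. Serpina3n, a protease inhibitor, had levels of 5.0, 2.72, 0.34 and -0.94 in the same order and differences of 2.28 and 1.28. Lcn2, at 2.95, 1.81, -1.57 and -3.95, was among the few with a smaller difference in the transgenic, 1.14 against 2.38. Cd109 stood at 2.73, Tm4sf1 at 2.51, Emp1 at 2.44, Ptx3 at 2.39 and S100a6 at 2.29. B3gnt5, a glycosyltransferase, was lower in spinal cord in both genotypes, at -2.79 and -4.17, and Steap4, a metalloreductase, was above background in transgenic brainstem/cerebellum alone and at least 1.70 lower in spinal cord.

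Genes of the microglial disease state were higher in transgenic spinal cord. Of 25 measured genes of disease-associated microglia, 22 were at least 2-fold higher and 0 lower, with a median of 1.76, against 3 of 25 and 0.56 in wild type. Clec7a, a lectin receptor of this state, had levels of 4.90 and 2.59 in transgenic spinal cord and brainstem/cerebellum and 0.57 and -0.02 in wild type. Trem2, the lipid receptor on which the state depends, had 5.32 and 3.36 against 2.41 and 1.91. Both tissues of the transgenic mice were above both wild-type tissues at these genes, and the transgenic spinal cord was highest. The largest differences were those of the integrin gene Itgax at 2.77, Gpnmb at 2.68, the lysosomal membrane gene Cd68 at 2.42, Lgals3 at 2.36 and Ccl6 at 2.36. Ank, at 0.13, and Ctsb, at 0.68, were among the 3 within 2-fold.

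Genes of resting microglia were higher too, though not all of them. Of 14 such genes 9 were at least 2-fold higher and 0 lower, with a median of 1.24 and 0.90 in wild type. Fcrls stood at 2.0, the fractalkine receptor gene Cx3cr1 at 1.77 and Csf1r at 1.52 (0.49 at its other probe). P2ry12, the purinergic receptor that resting microglia lose on activation, had levels of -0.08 and -0.71 in the transgenic and 0.15 and -1.15 in the wild-type tissues, differences of 0.62 and 1.30. Siglech and Olfml3 stood at -0.26 and -0.55 in the transgenic mice and at 1.79 and 1.34 in wild type, and were highest on the wild-type spinal cord array. Their other probes gave transgenic differences from -1.11 to 0.18 and from 0.61 to 1.75, so the direction of Olfml3 depends on the probe.

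Macrophage genes had 10 of 15 measured members at least 2-fold higher and 0 lower, with a median of 1.64, against 7 of 12 and 1.23 in wild type, where fewer of the genes were measured. With normexp 6 of 15 passed, with a median of 0.93. Ms4a7 (chromosome 19, 11395903 to 11395962) had levels of 4.19 and 0.78 in transgenic spinal cord and brainstem/cerebellum and -1.93 and -2.46 in wild type, and its difference of 3.41 (3.31 at its other probe) was the largest of the list. Chil3, a chitinase-like secreted protein, stood at 2.78, the scavenger receptor gene Msr1 at 2.51 and the perivascular macrophage gene Folr2 at 2.14. Mrc1, Pf4 and Cbr2, other genes of border macrophages, stood at 1.0, 0.99 and 0.99. Ccr2, the receptor of recruited monocytes, was not above background on any array. Ly6c2 stood at -0.06.

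Genes known from osteoclasts, the bone-resorbing relatives of macrophages, were partly higher. Of 7 measured members 4 were at least 2-fold higher and 0 lower, with a median of 1.01. Atp6v0d2, a proton pump subunit, had levels of 0.17 and -3.41 in transgenic spinal cord and brainstem/cerebellum, a difference of 3.59, and was not above background in either wild-type tissue. Acp5, the tartrate-resistant phosphatase, stood at 2.83 and the elastase gene Mmp12 at least 2.98. The fusion protein genes Dcstamp and Ocstamp were not above background in either transgenic tissue, and the bone matrix genes Bglap and Ibsp were not above background on any array.

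MHC class II genes, which present antigen to helper T cells, were higher in transgenic spinal cord. All 9 measured members were at least 2-fold higher, with differences between 1.48 and 2.59 and a median of 2.29, against 3 of 7 and 0.85 in wild type. H2-Aa (chromosome 17, 34421285 to 34421344) had levels of 3.58 and 0.99 in transgenic spinal cord and brainstem/cerebellum and of -3.13 and -4.69 in wild type. H2-Eb1 had 6.55 and 3.98 against 0.73 and -0.61, and the invariant chain gene Cd74 had 6.40 and 4.05 against 0.46 and -0.37. At each of these genes the transgenic brainstem/cerebellum was itself far above both wild-type tissues, and the spinal cord stood above it by 2.59, 2.58 and 2.35. Ciita, the master regulator of the class, had levels of -0.61 and -2.90 and a difference of 2.29, with -4.47 in wild-type spinal cord and no level above background in wild-type brainstem/cerebellum. The peptide-loading genes H2-DMb1 and H2-DMa stood at 2.34 and 1.90 and their modulators H2-Oa and H2-Ob at 1.48 and 1.96. H2-Ab1 stood at 2.19, while H2-Eb2 and H2-DMb2 were not above background on any array.

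Because these genes differed together, their upstream sequences are shown. Class II promoters share an X box and a Y box, which hold the protein complex that the CIITA protein joins. The letters GATTGG of the Y box, read on both strands over the 250 bases before each start, were present at 8 of the 8 class II genes with a promoter entry (at H2-DMa, before one of its starts) and at 16.6% of 27025 genes in the RefSeq promoter table of build GRCm38.p6. The letters AACTGATG from the X box were present at 3 of the 8, H2-Eb1, H2-Eb2 and H2-DMb1, and at 0.792% of genes. H2-Ab1, Cd74 and Ciita had no entry. A match is a description of letters and not a site, and H2-Eb2 carries both without a signal above background. The last 120 bases before the start are printed with matches to either motif, on either strand, in capitals, for H2-Aa (chr17:34287824-34287943, minus strand), H2-Eb1 (chr17:34305747-34305866, plus strand) and H2-DMb1 (chr17:34153071-34153190, plus strand). These motifs do not overlap in these stretches.
H2-Aa: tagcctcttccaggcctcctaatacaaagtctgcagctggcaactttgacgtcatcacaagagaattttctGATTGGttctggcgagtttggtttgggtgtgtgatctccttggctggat
H2-Eb1: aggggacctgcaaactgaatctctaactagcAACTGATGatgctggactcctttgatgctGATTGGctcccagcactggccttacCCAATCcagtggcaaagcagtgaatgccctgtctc
H2-DMb1: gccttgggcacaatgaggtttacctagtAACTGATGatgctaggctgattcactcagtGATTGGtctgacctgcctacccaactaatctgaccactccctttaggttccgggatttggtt

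Class I genes and the immunoproteasome, which present antigen to killer T cells, were also higher, with a lower median. Of 17 measured members 11 were at least 2-fold higher and 0 lower, with a median of 1.03, while 0 of 17 passed in wild type, where the median was 0.32. The call sits close to the threshold: with spike-in scaling 2 passed, with quantile normalization 8 and with normexp 7. Nlrc5, the class I counterpart of Ciita, had the largest difference, 1.80, with levels of -0.42, -2.22, -2.95 and -3.38 on the transgenic spinal cord, transgenic brainstem/cerebellum, wild-type spinal cord and wild-type brainstem/cerebellum arrays. H2-K1 stood at 1.22, H2-D1 at 1.23, the light chain gene B2m at 1.03, the immunoproteasome subunit gene Psmb9 at 1.39 and the peptide transporter gene Tap1 at 1.02.

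All 5 Fc receptor genes, which bind antibody on phagocytes, were at least 2-fold higher, between 1.55 for Fcgr1 and 2.09 for the shared signalling chain Fcer1g, with a median of 1.95, and 0 of 5 passed in wild type. Fcgr4 had levels of 1.42 and -0.55 in transgenic spinal cord and brainstem/cerebellum and -3.76 and -4.51 in wild type. Complement genes had 12 of 20 measured members at least 2-fold higher and 0 lower, with a median of 1.44, against 7 of 17 and 0.79 in wild type. C3, the central component, had the largest difference, 3.0, but also differed in wild type, by 3.83, with levels of 5.92, 2.92, 4.10 and 0.27. The microglial chains C1qa, C1qb and C1qc stood at 1.93, 1.83 and 1.72 with 0.52, 0.47 and 0.69 in wild type, and the receptor genes C3ar1 and Itgb2 at 2.15 and 2.11 with 0.71 and 0.48. The regulators Cd55 and Cfp stood at 0.26 and -0.37.

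**Figure D3:**
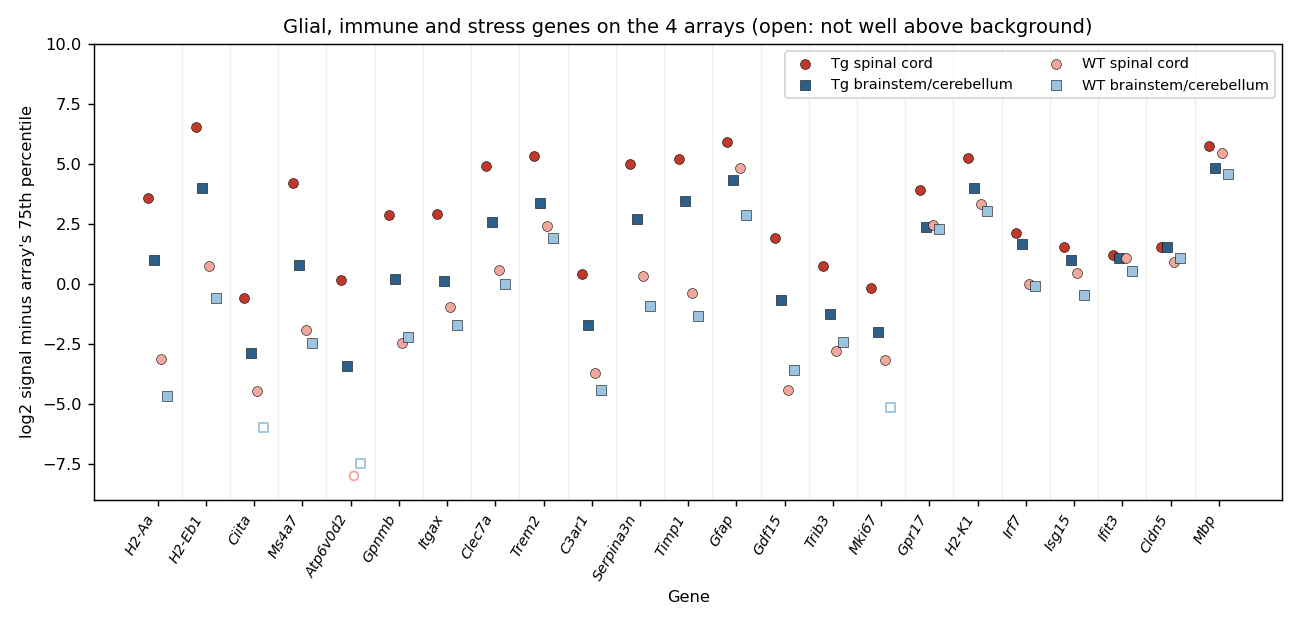
Levels of 23 glial, immune, stress and reference genes on the 4 arrays (log2 signal minus the array's 75th percentile), with open symbols for probes not well above background. From H2-Aa to H2-K1 the transgenic spinal cord (dark circles) is highest at each gene, whereas the interferon genes Isg15 and Ifit3 and the endothelial gene Cldn5 differ by 0.56 or less between the transgenic tissues.

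Signals that recruit and instruct leukocytes were partly higher. Of 24 measured chemokine genes 12 were at least 2-fold higher and 0 lower, with a median of 1.04. Cxcl16 stood at 2.56, the eosinophil attractant gene Ccl11 at 2.41, the monocyte attractants Ccl8 and Ccl2 at 2.12 and 1.61 and the neutrophil attractant Cxcl1 at 1.87. Ccl2 had levels of 2.49 and 0.88 in transgenic spinal cord and brainstem/cerebellum and -2.68 and -3.15 in wild type. Ccl5 and Cxcl10 stood just below 2-fold, at 0.85 and 0.98, and Cxcl9 was not above background on any array. Cxcl12 and Cxcl14 stood at -0.39 and -0.25, and at 0.55 and 0.29 at their other probes.

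Of 12 measured cytokine genes 9 were at least 2-fold higher and 0 lower, with a median of 1.54, and 7 further members were not above background in either transgenic tissue. Osm, a macrophage cytokine to which astrocytes respond, stood at 2.52, Il6 of the same family at 2.23 (1.12 at its other probe), the receptor antagonist gene Il1rn at 1.94, the alarmin gene Il33 at 1.75 and Il1b at 1.47. Tnf stood at 0.03, with levels of -3.62 and -3.65. Ifng and Ifnb1, the genes of interferon gamma and beta, were not above background on any array. Lymphocyte genes were dim: of 14 with a probe, 5 were measured in both transgenic tissues. Of these 2 were at least 2-fold higher and 0 lower, with a median of 0.50, and 4 more were higher as bounds. With spike-in scaling 1 of the 5 passed and the median was 0.16. The T cell chain Cd3e stood at 0.35 and the kinase gene Lck at 0.50, and Cd8a and Gzmb were not above background on any array. The B lineage genes Cd79b and Jchain stood at 3.53 and 1.25, and Ms4a1 was at least 1.20 higher.

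Interferon response genes were mostly within 2-fold between the transgenic tissues. Of 23 members 4 were at least 2-fold higher in the cord and 0 lower, where 10% of all measured genes were higher, and the median was 0.48, with 0.60 in wild type. With spike-in scaling 1 passed and the median was 0.15, and with normexp 2 passed. Ifit1 had levels of -1.30 and -1.35 on the transgenic spinal cord and brainstem/cerebellum arrays and of -2.15 and -2.97 on the wild-type ones. Ifit3 had 1.21 and 1.07 against 1.06 and 0.53. The transgenic tissues were thus within 0.14 of each other at these genes, near the technical SD of 0.10 to 0.13 at such levels, as were Usp18 at 0.14, Oasl2 at 0.14 and Ifit2 at -0.08. These genes do not stand for the whole list. By the main scaling 20 of the 23 members were above 0, and the median of 0.48 was larger than that SD. The 4 past 2-fold were the membrane proteins Ifitm3 at 1.77 and Bst2 at 1.07, Ifi44 at 1.26 and Oas1a at 1.02. Stat2 and Cmpk2 stood at -0.39 and -0.30.

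The element bound by the interferon-activated factor carries the letters TTTC, any pair of bases, and TTTC again. Over the 250 bases before the start and on both strands, this pattern was present at 7 of the 16 interferon genes with a promoter entry (Ifit1, Ifit3, Isg15, Stat2, Oas1a, Rsad2 and Bst2), at 0 of the 8 class II genes and at 3.46% of all genes in the table. GATTGG was present at 1 of the 16, Stat2. Ifit1 (chr19:34640769-34640888, plus strand) and Isg15 (chr4:156200819-156200938, minus strand) are printed to set against the class II stretches, with the matches in capitals; the matches of Isg15 lie on the opposite strand and overlap one another.
Ifit1: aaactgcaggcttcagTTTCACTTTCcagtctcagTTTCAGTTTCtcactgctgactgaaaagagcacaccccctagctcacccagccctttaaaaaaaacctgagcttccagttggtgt
Isg15: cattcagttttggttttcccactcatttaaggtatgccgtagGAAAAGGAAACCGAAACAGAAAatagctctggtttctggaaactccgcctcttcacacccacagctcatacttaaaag

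**Figure D4:**
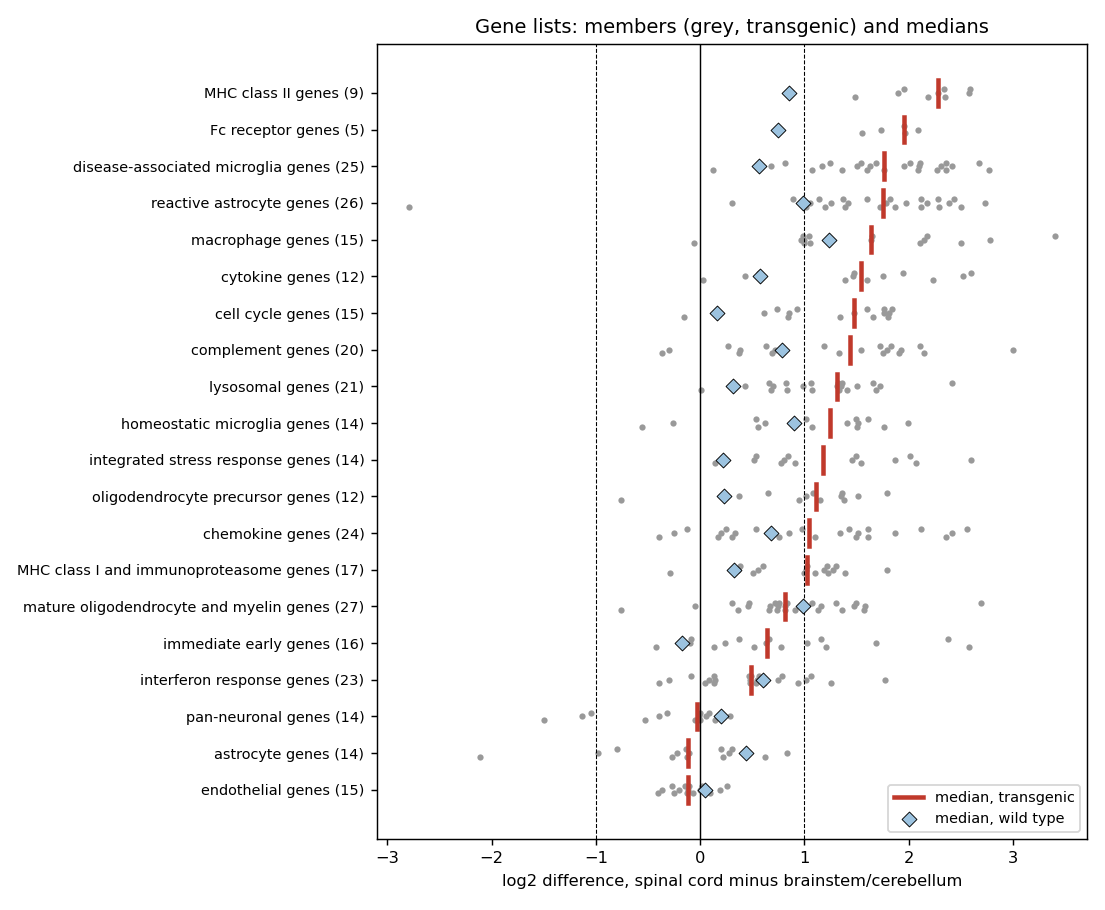
Log2 difference, spinal cord minus brainstem/cerebellum, for the measured members of 20 gene lists in the transgenic mice (grey points, number in brackets), with the list median in the transgenic (red bar) and the wild-type (blue diamond) comparison; dashed lines mark 2-fold. MHC class II, Fc receptor and disease-associated microglia genes have the highest transgenic medians shown. The medians of interferon response, myelin, homeostatic microglia, macrophage, chemokine, pan-neuronal and endothelial genes lie within 0.5 of their wild-type medians.

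Genes of dividing cells were higher in transgenic spinal cord. Of 15 cell cycle genes 9 were at least 2-fold higher and 0 lower, with a median of 1.48, and in wild type 0 of 9 measured were higher and 1 lower. With normexp background correction 6 passed and the median was 0.73, so this count depends on the background correction. Mki67, the proliferation marker, had levels of -0.17 and -2.01 in transgenic spinal cord and brainstem/cerebellum and -3.17 in wild-type spinal cord, and was not above background in wild-type brainstem/cerebellum. Its difference was 1.84, with Rrm2 at 1.81, Tpx2 at 1.80 and Top2a at 1.77. Mcm5 stood at -0.16.

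Lysosomal genes were mostly higher as well. Of 21 members 13 were at least 2-fold higher and 0 lower, with a median of 1.31, against 1 of 21 and 0.32 in wild type. With spike-in scaling 8 passed. All 21 had a larger difference in the transgenic than in the wild-type comparison, where 51.7% of all genes measured in both did. The beta-glucuronidase gene Gusb stood at 1.72 (0.38 at its other probe), the cathepsin genes Ctsz and Ctss at 1.69 and 1.31 and the hexosaminidase gene Hexa at 1.66. Metalloproteinase and inhibitor genes had 8 of 11 measured members higher and 0 lower, with a median of 1.27. With spike-in scaling 5 were higher, and with normexp 5, with a median of 0.76. Mmp19 stood at 2.28, the inhibitor gene Timp1 at 1.78 and Mmp3, not above background in wild type, at 1.73. Timp3 and Timp4 stood at -0.12 and -0.52.

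The integrated stress response, which slows translation and turns on ATF4 targets, was also higher in transgenic spinal cord. Of 14 genes 7 were at least 2-fold higher and 0 lower, with a median of 1.18, against 1 of 14 and 0.22 in wild type, and 7 passed with spike-in scaling too. Gdf15, a stress-induced secreted factor, had levels of 1.91 and -0.69 in transgenic spinal cord and brainstem/cerebellum and -4.45 and -3.61 in wild type. Its difference was 2.60 in the transgenic mice and -0.84 in wild type. The wild-type levels were dim, and the technical SD of a difference was 0.59 for the dimmest probes. The wild-type arrays also lay on different slides, so the wild-type direction is uncertain. Atf3 stood at 2.08, the pseudokinase gene Trib3 at 2.02, Atf5 at 1.49 and Chac1 at 1.46, while Asns stood at 0.14. Nupr1 stood at 1.87 and at -1.17 at its other probe. Fgf21, a hormone gene of this response, was above background on the transgenic spinal cord array alone and at least 17.2-fold higher there than in transgenic brainstem/cerebellum.

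Of 16 immediate early genes, 6 were at least 2-fold higher and 0 lower, with a median of 0.65 and -0.17 in wild type. With spike-in scaling 3 were higher and the median was 0.31. The matricellular gene Ccn1 stood at 2.58, Fosl1 at 2.38, Myc at 1.69 and Junb at 1.21. Arc stood at -0.42, Nr4a1 at -0.10 and Egr1 at 0.14.

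Vessel and reference genes give the scale of a small difference. Of 15 endothelial genes 0 passed 2-fold in either direction, with differences between -0.40 and 0.26 and a median of -0.12, and Cldn5, the tight junction gene of brain vessels, stood at 0.02. Among pericyte and smooth muscle genes 2 of 9 passed, Anpep at 2.63 and Tagln at 2.02, and the median of 0.33 was -0.01 with spike-in scaling. Ribosomal protein genes had differences between 0.06 and 0.77 with a median of 0.41 (0.07 with spike-in scaling), and oxidative phosphorylation genes a median of -0.33 (-0.66), and 0 of either list passed 2-fold. Xist, the RNA of the inactive X chromosome, was above background on all 4 arrays, and the Y-linked genes Ddx3y, Eif2s3y and Uty were not above background on any. The probe of Kdm5d, also Y-linked, was above background on all 4 arrays, wild type included, with a transgenic difference of -0.11.

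Many regional differences were also present in wild type, while most lists of the glial and immune reaction had smaller medians there. Of 16366 genes measured on all 4 arrays, 1033 were at least 2-fold lower in transgenic and 662 in wild-type spinal cord, and 455 were lower in both, which is 44.0% of the former and 68.7% of the latter. Of 1444 higher in transgenic and 1049 higher in wild-type spinal cord, 422 were shared, 29.2% and 40.2%. The tissue differences of the genotypes, which share no array, had a Pearson correlation of 0.63 and a Spearman correlation of 0.56 over genes, given as a description because genes are not independent replicates.

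Cerebellar granule cell and Purkinje cell genes had medians of -3.68 and -2.99 in the transgenic and -3.18 and -2.59 in the wild-type comparison. Over all genes measured in both comparisons, 51.7% had a larger difference in the transgenic one, and the median gap, transgenic minus wild type, was 0.02. Every gap includes the wild-type spinal cord array, which lay on another slide, and the part of the slide was not tested. Of 9 such genes of Hox groups 5 to 9, 1 had a larger difference in the transgenic comparison, and the median gap was -0.78. For disease-associated microglia genes, 24 of 25 had a larger difference in the transgenic comparison, with a median gap of 1.13. The same held for 7 of 7 class II genes (1.23), 5 of 5 Fc receptor genes (1.21), 11 of 12 precursor genes (0.75) and 13 of 14 stress response genes (0.91). Other immune lists showed little or no such gap over the genes measured in both: it held for 6 of 12 macrophage genes (0.01), 10 of 17 complement genes (0.20), 11 of 18 chemokine genes (0.16) and 12 of 22 interferon response genes (0.16). Among skeletal muscle genes it held for 0 of 7, with -1.35.

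**Figure D5:**
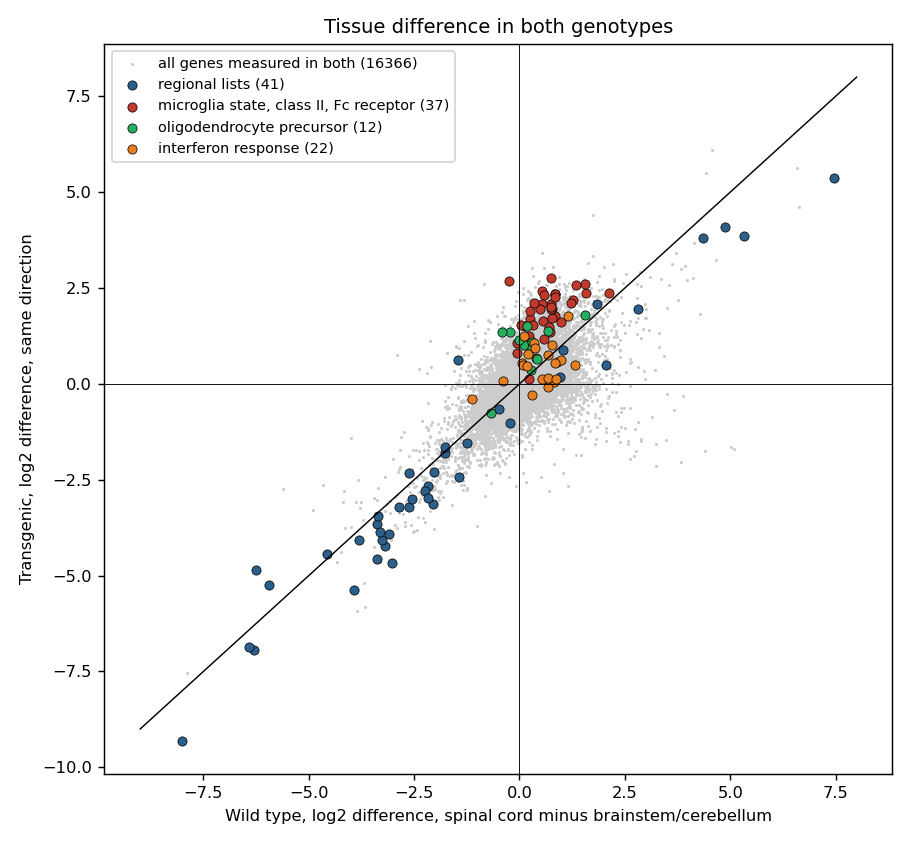
Tissue difference (log2, spinal cord minus brainstem/cerebellum) of genes measured on all 4 arrays, in wild type (horizontal) and transgenic mice (vertical), with the line of equal differences. Regional genes lie toward both ends, and microglia state, class II and Fc receptor genes (all but Ank) lie above it at wild-type differences between -0.25 and 2.12.

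The genes whose transgenic difference exceeded the wild-type one most included secreted and matrix genes. Crym, a thyroid hormone-binding protein, had levels of 2.03, 1.27, -2.71 and 0.19 on the transgenic spinal cord, transgenic brainstem/cerebellum, wild-type spinal cord and wild-type brainstem/cerebellum arrays, so its wild-type spinal cord value stood apart. Postn, a matrix protein of wound healing, had 0.48, -1.71, -4.16 and -2.84, and Col20a1, a collagen, 1.15, -1.65, -3.85 and -4.16. Gpnmb, Ms4a7, Tm4sf1, Gdf15, Sla and 4930519N06Rik belonged to the same set. Hes3 entered it through a smaller deficit, -2.75 against -5.60. Its wild-type spinal cord level, -5.15, was near the lowest level above background on that array, -5.76. Each wild-type difference in this set includes the wild-type spinal cord array, which lay on another slide, and the part of the slide was not tested.

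At the other end, the 10 genes that departed downward all had their highest level on the wild-type spinal cord array, the array on the other slide. Slc12a8 had levels of -1.46, 0.29, 2.58 and -0.19, and Ubash3a -0.34, 1.09, 2.75 and -0.12. Gbp9, Myo1h, Ms4a19 and 5 unnamed or predicted transcripts had the same shape. The part of the slide in these values was not tested.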

How the data were processed

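Total RNA was extracted with TRIzol, purified on columns, amplified and labelled with Cy3 for 1-colour Agilent arrays, per the labels' protocols. Each deposited scanner file gives linear spot intensities, background-subtracted and detrended within each array and not scaled between arrays, per the file headers. Agilent Feature Extraction was version 9.5.1.1 per the submitters' processing notes and 10.7.1.1 per the file headers. The authors' deposited series table also holds intensities, with a normalization not given in the sources used here, and served as an alternative.

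Control and outlier-flagged spots were left out, repeated spots averaged, and log2 of the deposited intensity reduced by the array's 75th percentile, a signal of 410 and 458 on the transgenic spinal cord and brainstem/cerebellum arrays and of 678 and 437 on the wild-type ones. Precision is limited by having 1 array per group. Of 56605 probes, 33895 were named by accession and 9464 by symbol through RefSeq tables, 489 by a synonym and 2103 by the file's symbol, and 10654 stayed unnamed. The brightest probe stood for a gene. A gene above background on 1 array has only a bound, "at least", against whichever is higher, the dim probe's signal or the lowest signal well above background there. The threshold was 2-fold (1 on the log2 scale).

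Members and 53 gene lists (719 entries, 4 with no probe) were chosen with earlier results of these data known. Some lists share members, so their counts are not independent. Named are the 15 largest differences each way among genes above background on both transgenic arrays and above the median of such genes on at least 1, the 6 largest bounds each way, all Hox and class II genes, up to 6 members per list with its defining genes, and, among genes above background on all 4 arrays and above that median, the 10 largest departures from wild type each way. Further members are examples chosen after their values were seen, and some genes this rule names are not reported here. Scripts ran in Python 3.11.15 with pandas 2.3.3 and in R 4.3.3 with limma 3.58.1, and were tested on simulated data. Alternatives covered scaling, background correction, filters, probe choice, the authors' values and the threshold.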

Additional observations from a re-analysis of the deposited data

Results flagged for a closer look

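Of the 16366 genes measured on all 4 arrays, 8 were at least 2-fold higher in transgenic and 2-fold lower in wild-type spinal cord, and 46 the reverse; the difference between the genotypes was not tested. The named genes hold 11 of these, and most were named for being among the largest departures from wild type. Postn was higher in spinal cord in the transgenic mice (2.19) and lower in wild type (-1.32). The other 10 were lower in transgenic and higher in wild-type spinal cord: Gm36802 at -1.13 and 2.40, Gm17244 at -1.14 and 2.49, 4833405L11Rik at -1.18 and 2.75, Uts2b at -1.22 and 1.48, Myo1h at -1.23 and 2.33, Gbp9 at -1.29 and 2.23, Ubash3a at -1.43 and 2.87, Gm9948 at -1.48 and 2.04, Slc12a8 at -1.75 and 2.76, and Ms4a19 at -1.85 and 1.47. The wild-type value of each includes the array that lies on a slide of its own.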

How the results depend on the processing

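The count of 1700 higher genes became 1028 with spike-in scaling, 1040 with normexp background correction and quantile normalization, and 741 among genes above the median on at least 1 array. At thresholds of 1.5-fold and 3-fold it was 3170 and 691. The count of 1055 lower genes became 2076, 687 and 523 under the first 3 of these, 2498 and 414 at the other thresholds, and 1602 when probes above background on either array entered. Median scaling, quantile normalization, a filter on all 4 arrays, kept flagged spots, the mean of probes and the authors' values left both counts within 1.5 times. Of 217 named genes past 2-fold, 195 were past it in the same direction with spike-in scaling, 215 with quantile normalization, 191 of 216 with normexp, and 210 with the mean of probes. Signal over background limits the dim genes: the cell cycle and macrophage counts were 6 and 6 with normexp, from 9 and 10. No paired analysis was possible because each group has 1 array and the labels carry no replicate numbers.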

Other observations

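Ependymal and motile cilia genes, which serve the lining of the ventricles and the central canal, were mostly within 2-fold between the transgenic tissues: of 7 measured members 0 were higher in spinal cord by 2-fold or more and 1 was lower, with a median of -0.08. Ccdc153 was the lower one at -1.69, and Foxj1, the master factor of motile cilia, stood at 0.82.

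Of 6 pituitary genes, 3 were above background on both transgenic arrays, with 0 past 2-fold in either direction and a median difference of -0.10. The others were dim. Gh was above background on the transgenic spinal cord array alone, at -4.04, and Prl and Cga on the transgenic brainstem/cerebellum array alone, at -5.02 and -4.74.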
